A study of Mus musculus with 2 samples.

Results

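The genes described here are the inhibitors of cyclin-dependent kinases (CDKs), the 7 genes of the Cip/Kip and Ink4 families, in mouse bone marrow stromal cells after total body irradiation. A gene was included by its symbol in the platform annotation, older names accepted, and 5 of the 7 had a probe named for them, out of 16390 genes named on the array. Cdkn1a, Cdkn1c and Cdkn2c had a ratio on both arrays, Cdkn2a had one at day 3 alone, and Cdkn1b had a probe but no ratio on either array. No probe was named for Cdkn2b or Cdkn2d, which were not analysed here.

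The cells came from C57BL/6 mice, either unirradiated or taken 1 day or 3 days after 9.5 Gy, and the series text gives 6 mice without saying how they were divided or pooled. Each time point had 1 array of 2 colours, with unirradiated RNA labelled Cy5 and irradiated RNA labelled Cy3, and no dye swap was used here. The age and sex of the mice, the way stromal cells were isolated, and whether both arrays used the same unirradiated extract are not given in the sources used here. A single array at each time leaves no replicate error, so values are described by size and no p-value is given.

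CDK inhibitors are the brakes of the cell cycle. The Cip/Kip proteins (p21 from Cdkn1a, p27 from Cdkn1b, p57 from Cdkn1c) bind complexes of cyclins with several CDKs, while the Ink4 proteins (p16 from Cdkn2a, p15 from Cdkn2b, p18 from Cdkn2c, p19 from Cdkn2d) bind Cdk4 and Cdk6 and keep them from cyclin D. Cdkn1a is the best known target of p53 after DNA damage. Cdkn2a also encodes, from another first exon, the Arf protein, which restrains the p53 ligase Mdm2, and Cdkn1c is an imprinted gene associated with quiescence of blood stem cells.

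The genomic sequence before the starts of Cdkn1a is shown because it holds the letters p53 is known to bind, and that before a start of Cdkn2c because this member stayed closest to 0 on both arrays. RefSeq windows (GRCm38.p6) were found for 6 of the 7 members. Cdkn1c had no entry. Each line gives the 250 bases before an annotated start, 5′ to 3′ on the gene's strand. Capitals mark 3 patterns searched on both strands, the p53 site (2 half-sites in a row, with 1 of its 20 letters allowed to differ), the GC box GGGCGG and the TATA-like TATAA. The p53 pattern was chosen after the Cdkn1a sequence was seen.
Cdkn1a upstream start, chr17:29090729-29090978, plus strand: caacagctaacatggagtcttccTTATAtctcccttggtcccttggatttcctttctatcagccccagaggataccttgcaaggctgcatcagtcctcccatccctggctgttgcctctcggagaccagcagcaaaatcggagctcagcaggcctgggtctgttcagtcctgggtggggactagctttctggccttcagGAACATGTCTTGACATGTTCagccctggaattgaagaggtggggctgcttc
Cdkn1a downstream start, chr17:29093519-29093768, plus strand: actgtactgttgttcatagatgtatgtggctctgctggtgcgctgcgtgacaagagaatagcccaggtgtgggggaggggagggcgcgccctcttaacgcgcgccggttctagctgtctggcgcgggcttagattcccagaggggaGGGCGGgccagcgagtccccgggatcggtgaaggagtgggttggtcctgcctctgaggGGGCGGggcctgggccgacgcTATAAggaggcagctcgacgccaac
Cdkn2c upstream start, chr4:109666757-109667006, minus strand: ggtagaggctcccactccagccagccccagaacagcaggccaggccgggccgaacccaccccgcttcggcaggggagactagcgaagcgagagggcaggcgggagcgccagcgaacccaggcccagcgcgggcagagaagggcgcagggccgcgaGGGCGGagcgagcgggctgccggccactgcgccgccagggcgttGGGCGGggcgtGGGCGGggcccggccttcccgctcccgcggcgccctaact
The p53 site of Cdkn1a reads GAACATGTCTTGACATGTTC and spans bases 51 to 32 before the upstream start, with no overlap with another pattern. Of 32851 windows of this length over all genes, 25 (0.0761%) held such a site, against 32.74% with GGGCGG and 22.78% with TATAA. The downstream start of Cdkn1a, 2790 bases further along, had 2 GC boxes and TATAA at bases 25 to 21 before it. The upstream start of Cdkn2c had 3 GC boxes and neither other pattern, at 77.2% G and C against a median of 52.4% over all windows. The window before its other start, 1384 bases further along, had none of the 3 patterns and 42.8% G and C. Such letters were not particular to Cdkn2c. The window before the upstream start of Cdkn2a had 78.4% G and C and 2 GC boxes, and that of Cdkn2d had 3 GC boxes. Of the members with a window, Cdkn1a alone held the p53 site. A match is a description of letters, and no binding was measured.

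Each value is the deposited log ratio between the colours of 1 array, read as log2, with the median over all genes set to 0. A gene is called higher or lower where this ratio reached 1 in size, that is 2-fold. The labels do not name the numerator. It was read as likely irradiated over unirradiated because p53 targets other than Cdkn1a had a higher median than proliferation markers on both arrays (1.57 against -0.05 at day 1 and 0.79 against -2.67 at day 3). With the opposite numerator, "higher" and "lower" would be exchanged throughout. Because that reading rests on p53 targets, their directions and those of Cdkn1a and the proliferation markers are no independent results. The opposition of Cdkn1a to Cdkn1c on the same array does not depend on that reading.

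The CDK inhibitors did not move as a group. At day 1, Cdkn1a was 4.68-fold higher and Cdkn1c 3.28-fold lower in irradiated cells, and Cdkn2c was within 2-fold. At day 3, Cdkn1a was still 3.72-fold higher, Cdkn1c had come closer to the unirradiated level, Cdkn2c was again near 0, and Cdkn2a stood just under 2-fold higher.

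At day 1, 2 of the 3 members with a ratio were called, 1 higher and 1 lower, where 30.7% of all 10434 genes were (19.6% higher and 11.1% lower). At day 3, 1 of 4 members was, where 14.2% of all 11404 genes were (7.35% higher and 6.85% lower). The median over members was -0.21 at day 1 and 0.35 at day 3, against 0 for all genes. With 3 and 4 members these shares say little beside the background.

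**Figure D1:**
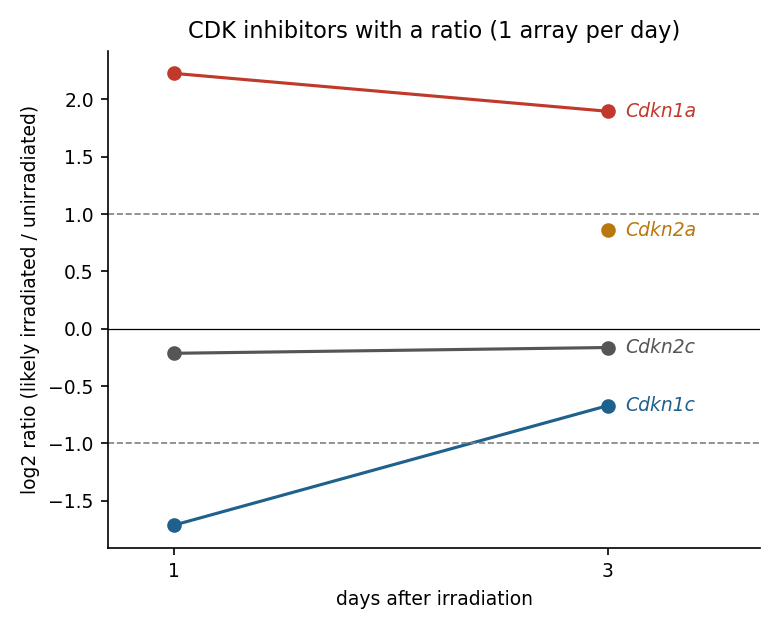
Log2 ratio (likely irradiated over unirradiated, vertical axis) of the CDK inhibitors with a ratio at 1 and 3 days after irradiation (horizontal axis), 1 array per day with no error bars. Dashed lines mark 2-fold. Cdkn1a stays above the upper line (2.23 and 1.90), Cdkn1c goes from -1.71 to -0.67, and Cdkn2c stays at -0.21 and -0.16.

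Among Cip/Kip genes, Cdkn1a had a log2 ratio of 2.23 at day 1 and 1.90 at day 3. At day 1, 670 of 10434 genes (6.42%) stood above it, and at day 3, 114 of 11404 (1.00%). Its ratio was thus lower by 0.33 at day 3, while its place among all genes was closer to the top. Cdkn1a has 1 probe, and the measurable spread was that between different probes of a gene on an array, with a pooled SD of 0.76 at day 1 (85 genes) and 0.58 at day 3 (116 genes). Both ratios of Cdkn1a were larger than these SDs. The difference of 0.33 compares the same probe on 2 arrays, and this spread does not measure the error of such a difference. Variation from animal to animal and between hybridisations is not part of this spread.

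Cdkn1c, which encodes p57, had a log2 ratio of -1.71 at day 1 and -0.67 at day 3. Only 2.05% of genes stood below it at day 1, against 14.2% at day 3. The difference of 1.04 from day 1 to day 3 just passed 2-fold, as did 28.9% of 9800 genes in either direction and 12.1% upwards, and it was 0.85 when the peak of the density over genes was set to 0. On the same array, Cdkn1a stood 3.94 above Cdkn1c at day 1 and 2.57 above it at day 3, or 15.4-fold and 5.93-fold apart. By the spread between probes, the difference of a pair of probes would have an SD of 1.07 at day 1 and 0.82 at day 3.

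Cdkn1b, the gene of p27, had no ratio on either array, and no direction can be read from that. Entries were empty for 36.3% of all named genes at day 1 and for 30.4% at day 3, by a filter that the sources used here do not state.

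Among Ink4 genes, Cdkn2c, the gene of p18, had log2 ratios of -0.21 at day 1 and -0.16 at day 3, which both turn positive (0.30 and 0.40) with ribosomal protein genes at 0. These are 1.16-fold and 1.12-fold lower, well inside the spread between probes, and the arrays differed by 0.05. Of the 9800 genes measured on both arrays, 708 lay within a distance of 0.25 of Cdkn2c in the plane of both ratios, so its pattern is a common one. Cdkn2c stood 2.44 below Cdkn1a at day 1 and 2.06 below it at day 3.

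Cdkn2a had a log2 ratio of 0.86 at day 3, or 1.82-fold higher, with 9.83% of genes above it. It reached 1.42 with ribosomal protein genes at 0, which makes 2 of 4 members called higher at day 3. With that centring 2745 of all 11404 genes were called higher, against 838 with the median over all genes at 0. Cdkn2a had no ratio at day 1, so its course over time is not known. Probe positions were not analysed here, so p16 and Arf transcripts, whose annotated starts lie 12427 bases apart, cannot be told apart by this value.

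**Figure D2:**
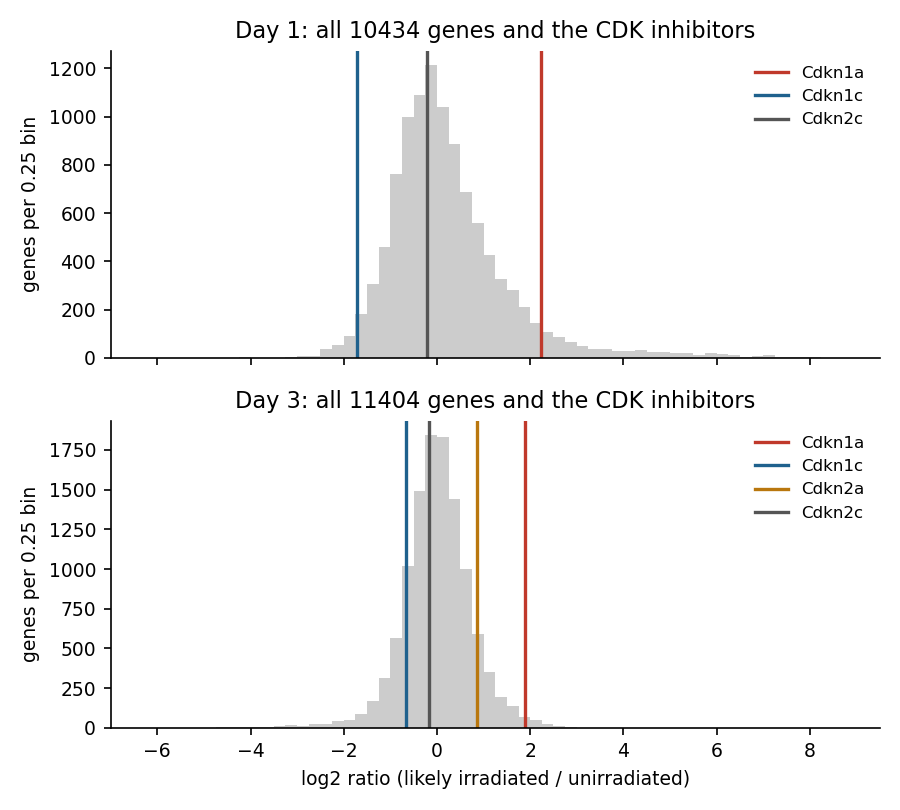
Number of genes per 0.25 bin of log2 ratio (likely irradiated over unirradiated) at day 1 (10434 genes, top) and day 3 (11404 genes, bottom), with coloured lines at the CDK inhibitors. Cdkn1a lies in the upper tail on both arrays, which is longer at day 1, Cdkn1c lies in the lower tail at day 1, and Cdkn2c lies in the middle of both.

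The genes closest to a member in both ratios were named by distance over 2 points, the day 1 and day 3 values, which is a thin measure of likeness. Nearest to Cdkn1a were the pentraxin Ptx3 (2.16 and 1.87), the progenitor transcription factor Gata2 (2.31 and 1.87) and the proton-sensing receptor Gpr4 (2.25 and 1.81), with 4 genes within 0.25. Nearest to Cdkn1c were Tnmd, a membrane glycoprotein of tendon (-1.71 and -0.64), the netrin receptor Unc5c (-1.70 and -0.71) and the coatomer subunit Copz2 (-1.76 and -0.70), with 67 genes within 0.25. Nearest to Cdkn2c were Nudt16l1, Thap11 and the ubiquitin ligase Huwe1, all between -0.22 and -0.20 at day 1 and at -0.15 at day 3.

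Cdkn1a stood among the higher p53 targets on both arrays. Of 22 other p53 targets with a ratio at day 1, 6 were above Cdkn1a and 16 below, and of 23 at day 3, 6 were above and 17 below. On that first array 16 of the 22 were called higher and 0 lower, led by the proapoptotic gene Pmaip1 (5.66), Gadd45a (4.02), a stress gene whose product binds p21 and PCNA, and Trp53inp1 (3.71). The lowest was Sesn1, a stress-induced regulator of mTORC1 signalling (-0.72). On the later array 11 of 23 were called higher and 0 lower. The numerator was read from this same list, so its upward direction is no independent result. Pmaip1 led again (2.79), with the death receptor gene Tnfrsf10b lowest at -0.04, or 0.52 with ribosomal protein genes at 0. Ccng1, a cyclin-like gene and p53 target, went from 3.15 to 1.94, and Mdm2, the ligase that degrades p53, from 2.26 to 1.06.

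The course of Cdkn1a was in the middle of this list. Between day 1 and day 3 it differed by -0.33, with 11 of 22 targets above it and 11 below, and the list's median difference was -0.32. Gadd45a had the largest decrease (-3.24) and Sesn1 the largest increase (1.13). At day 1, Cdkn1a and Mdm2 were level (2.23 and 2.26), and at day 3 Cdkn1a was higher by its value of 1.90 against 1.06. The gene of p53 itself, Trp53, had no named probe. Of the other regulators of p53, the ubiquitin protease gene Usp7 stood at 0.93 and 0.87, and Chek2, a checkpoint kinase gene, was at -0.08 at day 1, which turns positive when ribosomal protein genes (0.43) or the density peak (0.11) are set to 0, and at -1.61 at day 3.

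**Figure D3:**
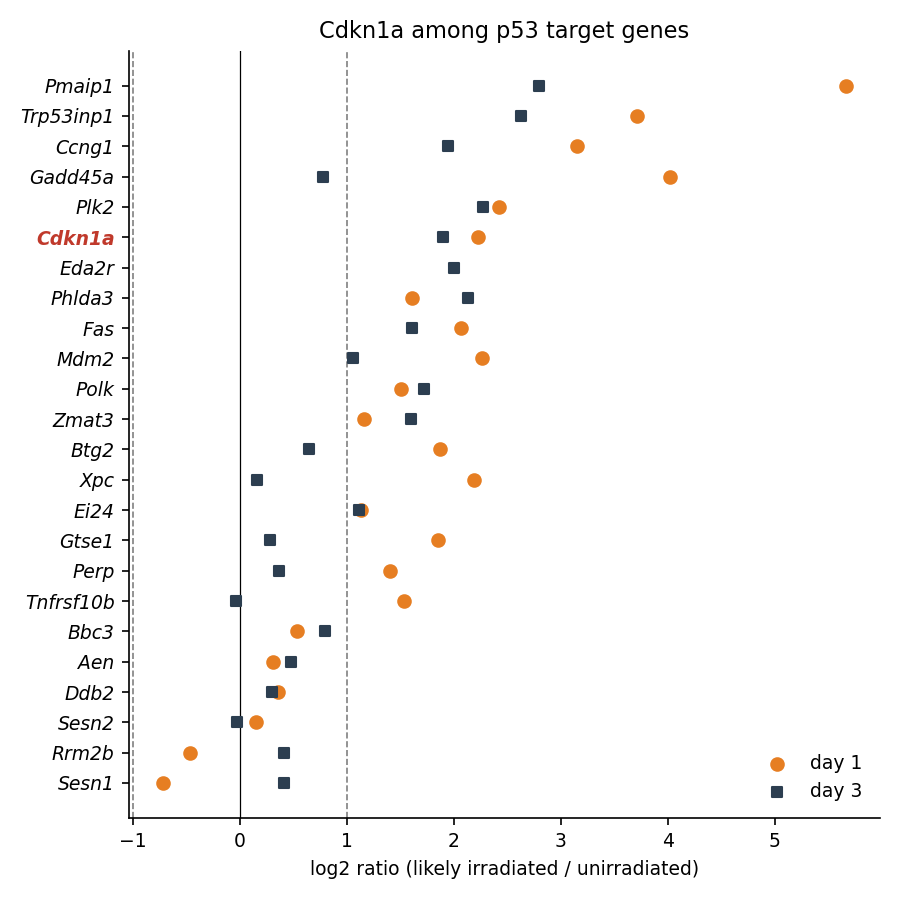
Log2 ratio (likely irradiated over unirradiated, horizontal axis) of Cdkn1a and other p53 targets with a ratio, ordered by the mean of the available days, with circles for day 1 and squares for day 3 and dashed lines at 2-fold. Cdkn1a (2.23 and 1.90) has 6 targets above it on each day, and its shift between days is smaller than that of Pmaip1 or Gadd45a.

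The kinases and cyclins that these inhibitors bind were mixed at day 1, and at day 3 Cdk1 and the E, A and B cyclins with a ratio were called lower. The mitotic kinase Cdk1 was at 1.01 at day 1 and -3.27 at day 3. Cdk2, the partner of cyclins E and A and a main target of p21, was at 0.82 and -0.10, the latter turning to 0.46 with ribosomal protein genes at 0. The Ink4 targets Cdk4 (-1.29 and -0.91) and Cdk6 (-0.82 and 0.05) were not called higher on either array. Counted together, 1 of these 4 CDKs was called higher and 1 lower at day 1, and 1 was lower at day 3.

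The D cyclins, which carry growth signals into G1, stood above the E cyclins at day 3. Ccnd2 was at 0.67 and 1.07, and Ccnd3 at 1.53 and -0.34, the latter turning to 0.22 with ribosomal protein genes at 0. Ccne2, which starts S phase with Cdk2, was at -0.21 at day 1, or 0.30 with ribosomal protein genes at 0, and at -3.11 at day 3. Ccne1 had no ratio at day 1 and stood at -2.61 at day 3. No probe was named for Ccnd1.

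Ccna2 (-4.50) and Ccnb2 (-3.10), the A and B cyclins with a ratio at day 3, were both called lower. At day 1 they stood at -0.57 and 1.03, and the germline cyclin Ccna1 at 0.68. Of 4 genes that switch CDKs on or off by phosphate, the phosphatase genes Cdc25b (1.98) and Cdc25a (1.17) were called higher at day 1, and the kinase gene Pkmyt1 (0.15) was lowest. At day 3, Pkmyt1 was at -1.15 and the kinase gene Wee1 highest at 0.73. The CDK-activating subunits Ccnh (-0.27 and -0.54) and Mnat1 (-0.29 and 0.25) were within 2-fold on both arrays, and each of these negative values turns positive with ribosomal protein genes at 0.

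Downstream of the CDKs, the Rb family was within 2-fold on each array, and Rb1 differed by 1.23 from day 1 to day 3. Rb1 was at -0.32 at day 1 and 0.91 at day 3, Rbl1 at -0.22 and -0.78, and Rbl2 at -0.34 and -0.36. The day 1 values of all 3, and Rbl2 at day 3, turn positive with ribosomal protein genes at 0. Among E2F and DP genes, which Rb proteins hold in check, 2 of 7 were called higher at day 1 and 3 lower, from E2f4 (-1.44) to Tfdp1 (1.11). At day 3, 2 of 8 were called lower and 0 higher, with E2f4 at -2.14, E2f1 at -2.13 (after -0.74 at day 1) and E2f5 highest at 0.09.

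Proliferation markers, given beside the inhibitors as the readout of cycling, had a median log2 ratio of -0.05 at day 1 (21 genes, 5 called higher and 6 lower) and of -2.67 at day 3 (18 genes, 16 called lower and 0 higher). The day 1 median turns to 0.13 with the density peak and 0.46 with ribosomal protein genes at 0. It hides a split within the list. Mki67, Aurka, Kif23, Ndc80 and Cenpe were called higher at day 1, and Mcm4, Mcm6, Mcm7, Rrm2, Tk1 and Tyms lower. Mki67 was at 1.32 at day 1 and -3.61 at day 3, Kif23, a mitotic kinesin, highest at day 1 (1.90), Tk1, thymidine kinase, lowest there (-2.02), and Birc5 lowest at day 3 (-4.70). Fewer cycling cells and less RNA of these genes per cell cannot be told apart in such bulk samples.

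Of the proteins that degrade the Cip/Kip inhibitors, the Skp2 ligase genes were within 2-fold apart from Skp2 itself at day 3. Skp2, which marks p27 and p21 for destruction, was at -0.90 and -1.04. Its cofactor Cks1b was at -0.15 and -0.29, both positive with ribosomal protein genes at 0, and at -1.37 at day 3 if the probe with the largest ratio was taken. Rbx1 was highest at day 3 (0.26). Among 3 genes of the ligase that degrades p21 on PCNA and the gene of PCNA itself, Cul4a (-1.09) and Ddb1 (-1.02) were called lower at day 1 and 0 at day 3, where Cul4a stood at -0.84. Cul4b was highest on both (0.07 and 0.35).

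Genes that act upstream of single members were mostly within 2-fold, as most genes were. Of all genes, 30.7% were called at day 1 and 14.2% at day 3. The FoxO factors, which switch on Cdkn1b, and Akt kinases, which restrain them, were all within 2-fold, with Foxo1 at -0.54 and 0.60, Akt1 highest at day 1 (0.47), Akt2 lowest at day 3 (-0.55, or 0.01 with ribosomal protein genes at 0), and Foxo3 at -0.31 at day 3, or 0.25 with ribosomal protein genes at 0. Of 10 Polycomb genes, which silence the Cdkn2a and Cdkn2b locus, 1 was lower at day 1, Phc1 (-1.50), and Eed was highest (0.95). At day 1, 0 of the 10 were called higher, where 19.6% of all genes were. Their other counts were near the shares over all genes, 11.1% lower at day 1, and 7.35% higher and 6.85% lower at day 3. At day 3, Bmi1 was called higher (1.58, after 0.49 at day 1) and Ezh2 lower (-1.97, after -0.41 at day 1, which becomes 0.10 with ribosomal protein genes at 0). These went in opposite directions on the array where Cdkn2a stood at 0.86. All 8 TGF-beta ligand, receptor and Smad genes with a ratio, a pathway that induces Cdkn2b, were within 2-fold on both arrays, with Tgfb1 at 0.05 and -0.13, the latter turning to 0.44 with ribosomal protein genes at 0. They ranged from Tgfb3 (-0.66) to Smad2 (0.80) at day 1 and from Smad3 (-0.25, or 0.32 with ribosomal protein genes at 0) to Smad7 (0.67) at day 3.

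Cdkn1c stood below all 8 other imprinted growth genes with a ratio at day 1, and below 8 of 10 at day 3. Of the 8, 4 were called lower and 1 higher at day 1, with Peg3 lowest (-1.62) and Meg3 highest (1.13), and the list's median was -0.61. At day 3, 2 of 10 were lower and 1 higher, with a median of 0.47. Phlda2 (-1.71) and Kcnq1 (1.07), from the same imprinted region as Cdkn1c, were the lowest and highest of that array. Igf2, an imprinted growth factor gene, was at -0.14 at day 1, which turns positive when ribosomal protein genes (0.37) or the density peak (0.05) are set to 0, and at 0.81 at day 3.

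Among other proteins that bind CDKs or Arf, Cdkn3, a phosphatase that removes the activating phosphate from Cdk2 despite its name, went from 2.13 at day 1 to -1.95 at day 3. Cdk2ap2, related to a Cdk2-binding protein, was at 2.96 and 0.19. Cdkn2aip, whose product binds Arf, was at 0.42 and 1.19, and Npm1, the nucleolar anchor of Arf, lowest at day 1 (-0.47, or 0.04 with ribosomal protein genes at 0). Over the 7 genes, 2 were called higher and 0 lower at day 1, and 1 higher and 1 lower at day 3.

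**Figure D4:**
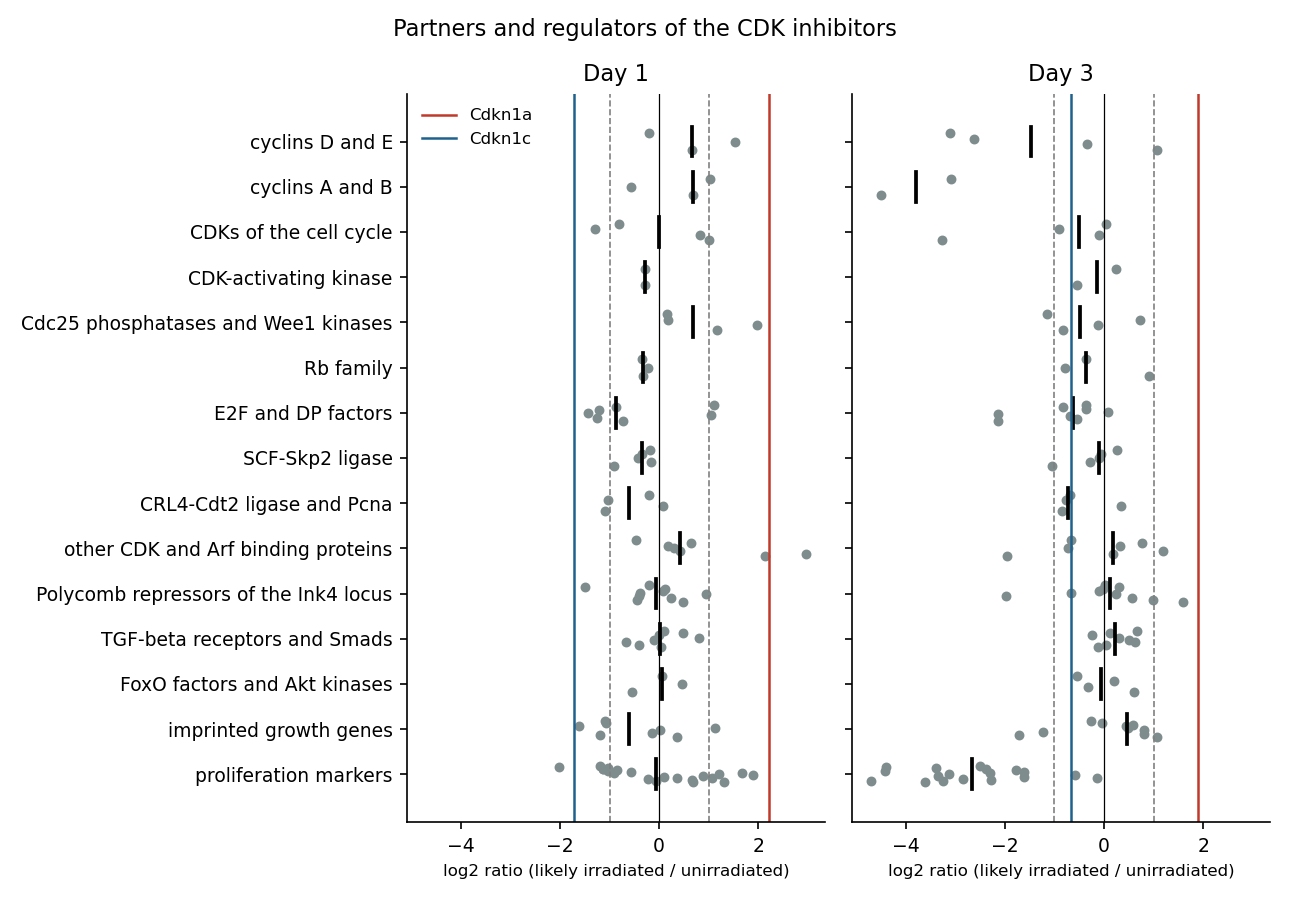
Log2 ratio (likely irradiated over unirradiated, horizontal axis) of single genes (grey points) and the median (black bar) of each list at day 1 (left) and day 3 (right), with lines at Cdkn1a and Cdkn1c and dashed lines at 2-fold. Proliferation markers and cyclins A and B have the lowest medians of these lists at day 3 (-2.67 over 18 genes and -3.80 over 2). Single genes of other lists, Cdk1 (-3.27) and Ccne2 (-3.11), lie below Ccnb2 (-3.10). Cdkn1a stands above every gene plotted at day 3, where the p53 targets are not plotted.

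The cells on the arrays differed in more than the CDK inhibitors, and the part of cell makeup in the members' ratios was not tested. At day 1 all 11 pan-leukocyte genes measured were called higher (median 5.33, range 4.36 to 8.17), as were all 13 granulocyte genes (median 5.89) and 4 of 6 monocyte and macrophage genes, whereas 6 of 7 erythroid genes were lower (median -4.06). Cdkn1a, at 2.23, stood below all 11 pan-leukocyte genes. At day 3, 0 of 8 pan-leukocyte and 0 of 10 granulocyte genes with a ratio were called higher, and Cdkn1a was at 1.90. Their medians were -0.33, or 0.23 with ribosomal protein genes at 0, and -1.49. The highest gene of each list at day 1, Cd53 and Csf3r, had no ratio at day 3. Of 4 monocyte and macrophage genes, 2 were still called higher at day 3, Cd14 (1.17) and Cd68 (1.06). The median of these 4 was 0.74, and 7.35% of all genes were called higher. Erythroid genes stayed low, with 7 of 8 called lower.

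Markers of the labelled stromal cells had ratios on both arrays, though a ratio does not show a level. Mesenchymal markers had a median of -0.50 at day 1, or 0.01 with ribosomal protein genes at 0, with 2 of 9 called lower and 1 higher. Their median was 0.47 at day 3, with 2 of 8 called higher and 0 lower. Osteoblast genes were called lower in 5 of 7 cases at day 1 (median -1.14, range -1.89 to -0.77) and in 4 of 8 at day 3 (median -0.97), beside Cdkn1c at -1.71 and -0.67. All 8 endothelial genes were called higher at day 3 (median 2.03, range 1.36 to 2.43), as were 5 of 7 adipocyte genes (median 2.24), beside Cdkn1a at 1.90. At day 1, 3 of 8 endothelial and 2 of 5 adipocyte genes were called higher (medians 0.66 and 0.49), beside Cdkn1a at 2.23. Megakaryocyte genes (medians 0.90 and -1.12 over 3 genes), B lineage genes (-0.83 and -2.95 over 3) and T and NK genes (3.19 and 0.32 over 2) rest on few ratios.

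**Figure D5:**
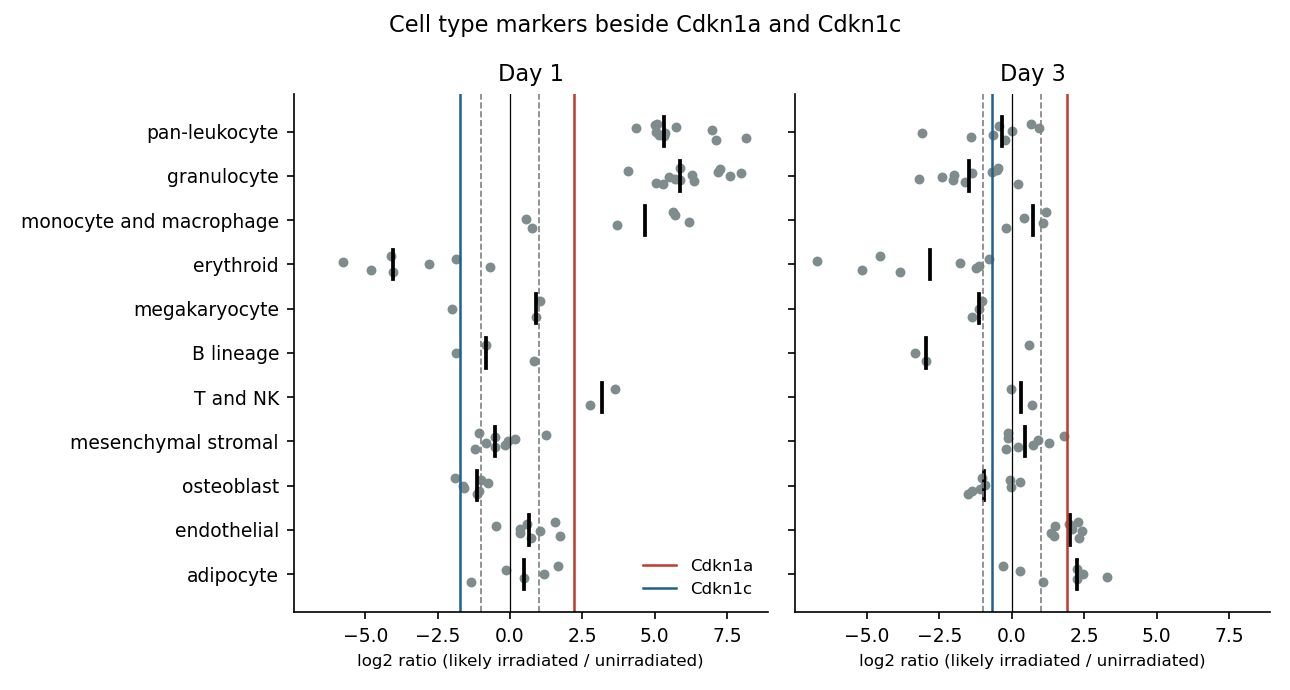
Log2 ratio (likely irradiated over unirradiated, horizontal axis) of cell type markers (grey points, median as black bar) at day 1 (left) and day 3 (right), with lines at Cdkn1a and Cdkn1c and dashed lines at 2-fold. Leukocyte and granulocyte markers lie far above Cdkn1a at day 1 (medians 5.33 and 5.89), and at day 3 the endothelial and adipocyte medians (2.03 and 2.24) lie close to it.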

How the data were processed

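The authors deposited 1 log2 ratio of 2 channels per probe and array; base, numerator, scanner, background correction, normalisation and filter are not given in the sources used here, and log2 is assumed. The deposited medians were 0.0003 and -0.0001, so the values were already centred. No intensities were used here, so signal over background is unknown, and precision is limited by how few arrays there are. Of 23473 probes, 16631 had 1 annotated symbol each and 6842 had none. Through RefSeq (GRCm38.p6), 12622 symbols were current, 3947 were updated from an older name, and 62 were kept as given, 59 of them because the older name fitted several genes. Probes of a gene were averaged and the median over genes subtracted (-0.0119 at day 1, 0.0162 at day 3). A gene was called at a log2 ratio of 1 in size.

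Members and lists were chosen with earlier results of these data known. All members were named, with the highest and lowest gene of each list on each array, a short set named in any case and the 3 genes nearest to each member by Euclidean distance. Scripts (Python 3.11.15, pandas 2.3.3, SciPy 1.17.1) were tested on simulated data. Other centrings, probe rules, symbols and thresholds were tried.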

Additional observations from a re-analysis of the deposited data

Results flagged for a closer look

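Of the genes named, 4 were past 2-fold in opposite directions on the arrays, with 1 array each, so the difference was not tested. Cdkn3 was at 2.13 at day 1 and -1.95 at day 3. Mki67 was at 1.32 and -3.61. Cdk1 was at 1.01 and -3.27, and Ccnb2 at 1.03 and -3.10, both only just past 2-fold at day 1. No CDK inhibitor did so.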

How the results depend on the processing

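Setting ribosomal protein genes to 0 added 0.51 to every gene at day 1 and 0.56 at day 3, and setting the density peak to 0 added 0.19 at day 1. Among genes past 2-fold, 63.9% were higher at day 1, against 75.8% with the density peak and 89.9% with ribosomal protein genes at 0. At day 3 the share was 51.8%, against 91.1% with ribosomal protein genes at 0, and for the difference between days 41.8%, against 28.3% with the density peak at 0. The members past 2-fold at day 1 were 2 under every alternative. At day 3 there was 1, but 2 with ribosomal protein genes at 0 and 3 at 1.5-fold. Over all 11404 genes, 838 were higher and 781 lower at day 3, against 2745 and 269 with ribosomal protein genes at 0. The share of all genes past 1.5-fold was not computed. Between days there was 1 (Cdkn1c, higher), but 0 with the density peak at 0, where 801 of all genes were higher against 1182 in the main setting. Over the alternatives Cdkn1a ranged from 2.22 to 2.74 at day 1 and from 1.89 to 2.46 at day 3, and Cdkn1c from -1.73 to -1.20 and from -0.67 to -0.11. Probe rules and exact symbols did not move the counts. No paired analysis was possible because each time point has 1 array. With no replicates, no array could be left out.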

Other observations

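The p53 site found before Cdkn1a was shared by 24 other genes, most of them without a ratio. The pattern was chosen after the Cdkn1a sequence was seen, so these values are a description. At day 1, 4 of the 24 had a ratio and 1 was at least 2-fold higher and 1 lower, and at day 3, 5 had a ratio with 2 higher and 1 lower. Over all genes, 19.6% were higher and 11.1% lower at day 1, and 7.35% and 6.85% at day 3. With 4 and 5 genes these counts say little beside those shares. Ccng1 was at 3.15 and 1.94, the ribosomal protein paralogue and known p53 target Rps27l at 0.80 and 0.53, and Mthfd1, a folate enzyme gene, at -2.40 and -2.10. Calhm2 was at -0.52 and 0.11, and Sptbn4, a spectrin gene, at 1.13 at day 3.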
